A study of Mus musculus with 6 samples.

Results

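Cdh1, Cdh16, Epcam, Krt7, Krt8, Krt18, Krt19, Cldn3, Clu and Sorbs2, 10 genes for the adhesion and the cytoskeleton of the thyroid follicular epithelium, were followed through 6 arrays of mouse thyroid RNA. A probe set (a group of short probes on the array) was taken when the platform annotation gave it to 1 of these genes alone, which left 22 probe sets of the 10 genes among the 45037 probe sets that were not controls, and 10 of the 18193 genes with a probe set of their own. The tissue was microdissected thyroid of mice at postnatal day 15, and 3 arrays were from Slc26a4 knockout animals (knockout 2, 4 and 6, after the sample numbers in their titles) and 3 from Slc26a4 heterozygous animals (heterozygous 1, 3 and 5). Slc26a4 encodes pendrin, an anion exchanger of the apical membrane of follicular cells. The heterozygous animals carry a disrupted Slc26a4 allele too, and there is no wild-type array among the 6. Which part of Slc26a4 was deleted, the strain and sex of the mice and how many mice gave the RNA of 1 array are not stated in the labels. Nothing says that arrays of 1 genotype stand for separate animals, so p-values cover the spread between these samples alone, which may be technical.

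The follicle of the thyroid is a single layer of epithelial cells around a lumen of colloid. E-cadherin (Cdh1) joins neighbouring cells at adherens junctions and is tied to actin through catenins, claudins such as Cldn3 seal the paracellular space at tight junctions, and keratin filaments made of 1 type I and 1 type II chain run through the cytoplasm. Krt8 (type II) and Krt18 (type I) are the pair of simple epithelia, to which Krt7 (type II) and Krt19 (type I) are added in many ducts and glands. Epcam is a homophilic adhesion protein of simple epithelia, Cdh16 is a cadherin of kidney and thyroid with a short cytoplasmic tail, Clu is a secreted chaperone, and Sorbs2 is an adaptor at actin-based structures that is also found in muscle. As follicles sit in a tissue sample beside fat, vessels, muscle and parathyroid, the level of these transcripts on an array also follows the share of epithelium in the sample. In RNA from whole tissue, fewer cells of a type and less RNA per cell cannot be told apart.

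RefSeq's promoter table (build GRCm38.p6, windows of 300 bases over the start of a gene, most of them upstream) held 6 of the 10 genes. The promoters of Krt8 and Krt18 are shown because the partner keratins lie side by side, with 0 protein-coding genes between them in RefSeq, and that of Epcam because it holds ACCGGT at 2 places. Capitals mark TATAAA (the TATA box), ACCGGT (the core of the site of grainyhead-like factors) and CACCTG (an E-box of the kind that Snail and Zeb factors bind), each searched on both strands.
Krt8 (chr15:102004293-102004592, minus strand): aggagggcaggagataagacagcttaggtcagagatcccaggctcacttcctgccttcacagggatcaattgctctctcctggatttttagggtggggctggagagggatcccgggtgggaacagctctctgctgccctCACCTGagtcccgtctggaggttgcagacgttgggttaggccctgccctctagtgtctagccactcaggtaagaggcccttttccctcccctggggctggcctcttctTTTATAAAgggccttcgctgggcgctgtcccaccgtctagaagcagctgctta
Krt18 (chr15:102027966-102028265, plus strand): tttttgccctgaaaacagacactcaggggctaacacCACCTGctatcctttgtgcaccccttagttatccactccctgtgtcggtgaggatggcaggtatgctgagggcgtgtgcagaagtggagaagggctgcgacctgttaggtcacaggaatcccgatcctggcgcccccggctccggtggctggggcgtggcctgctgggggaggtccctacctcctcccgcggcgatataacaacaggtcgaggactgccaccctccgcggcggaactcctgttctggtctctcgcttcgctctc
Epcam (chr17:87635729-87636028, plus strand): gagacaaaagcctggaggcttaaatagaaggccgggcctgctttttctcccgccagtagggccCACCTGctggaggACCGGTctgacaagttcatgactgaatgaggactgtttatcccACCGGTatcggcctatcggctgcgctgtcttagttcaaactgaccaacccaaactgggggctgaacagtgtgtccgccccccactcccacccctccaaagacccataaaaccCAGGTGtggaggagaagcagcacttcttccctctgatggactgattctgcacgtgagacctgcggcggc

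TATAAA was found in the Krt8 window, where the forward and the reverse match overlap, and in none of the Krt18 and Epcam windows. Of all 32851 promoters of the table, 13.6% hold it. ACCGGT, held by 2.33% of all promoters, was found in Epcam and in neither keratin window. CACCTG was in all 3 windows, 2 times in that of Epcam, and in 20.2% of all promoters. These matches describe the letters of the windows only. The transcript of Grhl2, a grainyhead-like factor, read 2492, 2081 and 1992 on knockouts 2, 4 and 6, against 2470.0, 2444 and 2201 on heterozygous 1, 3 and 5 (log2 difference -0.12, limma, adjusted p = 1.0). That of Zeb1 read 2726, 3449 and 3494 on knockouts, against 2699, 3018 and 4204 on heterozygous arrays (log2 difference -0.02, limma, adjusted p = 1.0). Snai1, Snai2 and Zeb2, of the same Snail and Zeb factors, gave log2 differences of 0.09, 0.09 and 0.01, none passing in limma.

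Levels below are linear array signals in arbitrary units, already scaled per array to a common trimmed mean, and their medians ran between 78.1 and 103.6, with the highest on knockout 6. Differences are knockout minus heterozygous on the scale of log2(signal + 16.7), which understates those of dim probe sets. The targeted gene could not check the genotypes: its probe set read 7.29, 2.10 and 15.7 on knockouts 2, 4 and 6, against 4.997, 4.59 and 12.1 on heterozygous 1, 3 and 5, all under the 43.5 that corresponds to the limit for testing. Tg, the thyroglobulin that marks follicular cells, read between 11794 and 13201 on knockout arrays and between 12449 and 13805 on heterozygous arrays.

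The cadherins had lower knockout means with overlapping groups. Cdh1 read 5942, 5595 and 4567 on knockouts 2, 4 and 6, against 6761, 6353 and 5278 on heterozygous 1, 3 and 5 (probe set 1448261_at). Knockout 6 was the lowest array of all and heterozygous 5 the lowest of its genotype, so that knockouts 2 and 4 lay within the heterozygous range. The means were 5368 ± 715 and 6131 ± 766 (SD, n = 3 each), and the log2 difference was -0.19 (95% interval -0.49 to 0.10, limma, unadjusted p = 0.17, adjusted p = 1.0). Cdh16 read 2684, 1959 and 1349 on knockouts 2, 4 and 6, against 2548, 2591 and 1856 on heterozygous 1, 3 and 5 (1448906_at). The knockout values enclosed the heterozygous ones, with knockout 2 the brightest and knockout 6 the dimmest of all 6. Its log2 difference was -0.26 (interval -0.82 to 0.30, limma, unadjusted p = 0.316, adjusted p = 1.0). Between the highest and the lowest knockout array the signal of Cdh16 differed 1.99-fold, against 1.40-fold between heterozygous arrays, while for Cdh1 these folds were 1.30 and 1.28.

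Epcam and the claudin also had the lower knockout mean, with overlapping groups. Epcam read 4579.8, 4133 and 3534 on knockouts 2, 4 and 6, against 4851, 4429.9 and 3933 on heterozygous 1, 3 and 5 (1416579_a_at). Only knockout 6 lay below all heterozygous arrays, and the log2 difference was -0.11 (interval -0.39 to 0.16, limma, adjusted p = 1.0). A dimmer probe set of Epcam, 1447899_x_at, gave -0.08, with its lowest value of 515.2 on knockout 4. Cldn3 read 1779, 1379 and 1429 on knockouts 2, 4 and 6, against 1885, 1729 and 1409 on heterozygous 1, 3 and 5 (1434651_a_at). The groups overlapped, knockout 4 being just below heterozygous 5. Its 4 probe sets gave log2 differences of -0.13, -0.16, -0.25 and -0.19, in order of their brightness, none of which passed (limma, adjusted p = 1.0). Names that end in _x_at or _a_at mark probe sets that may also bind other transcripts or several transcripts of a gene.

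The 4 keratins divided into Krt19, which had the largest difference of the 10 genes, and Krt7, Krt8 and Krt18, which had the 3 smallest. Krt19 read 2586, 2328 and 2159 on knockouts 2, 4 and 6, against 3730, 2759.8 and 2438 on heterozygous 1, 3 and 5 (1417156_at). Knockouts 4 and 6 lay below all heterozygous arrays and knockout 2 between heterozygous 5 and 3. The means were 2358 ± 215 and 2976 ± 672 (SD, n = 3 each), and the log2 difference was -0.31 (interval -0.68 to 0.05, limma, unadjusted p = 0.0825, adjusted p = 1.0). Without heterozygous 1, the highest array, the difference of Krt19 was -0.14, and without heterozygous 5 it was -0.45.

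Krt8 read 5534, 5009 and 4516 on knockouts 2, 4 and 6, against 5743, 5724 and 4095 on heterozygous 1, 3 and 5 (1420647_a_at). The heterozygous values enclosed the knockout ones, and the log2 difference was -0.03 (interval -0.37 to 0.30, limma, adjusted p = 1.0). Of its other probe sets, 1435989_x_at gave -0.05 and 1423691_x_at 0.03, the only difference above 0 among the tested probe sets. Krt18, the partner of Krt8, read 6652, 6738 and 5963 on knockouts 2, 4 and 6, against 7652, 6424 and 6083 on heterozygous 1, 3 and 5 (1448169_at). Knockouts 2 and 4 lay between heterozygous 3 and 1, and the log2 difference was -0.05 (interval -0.29 to 0.18, limma, adjusted p = 1.0). Krt7 read 1958, 1489 and 1275 on knockouts 2, 4 and 6, against 2244, 1458 and 1259.9 on heterozygous 1, 3 and 5 (1423952_a_at). All 3 knockout arrays were within the heterozygous range, and the log2 difference was -0.05 with the wide interval of -0.59 to 0.49 (limma, adjusted p = 1.0).

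**Figure D1:**
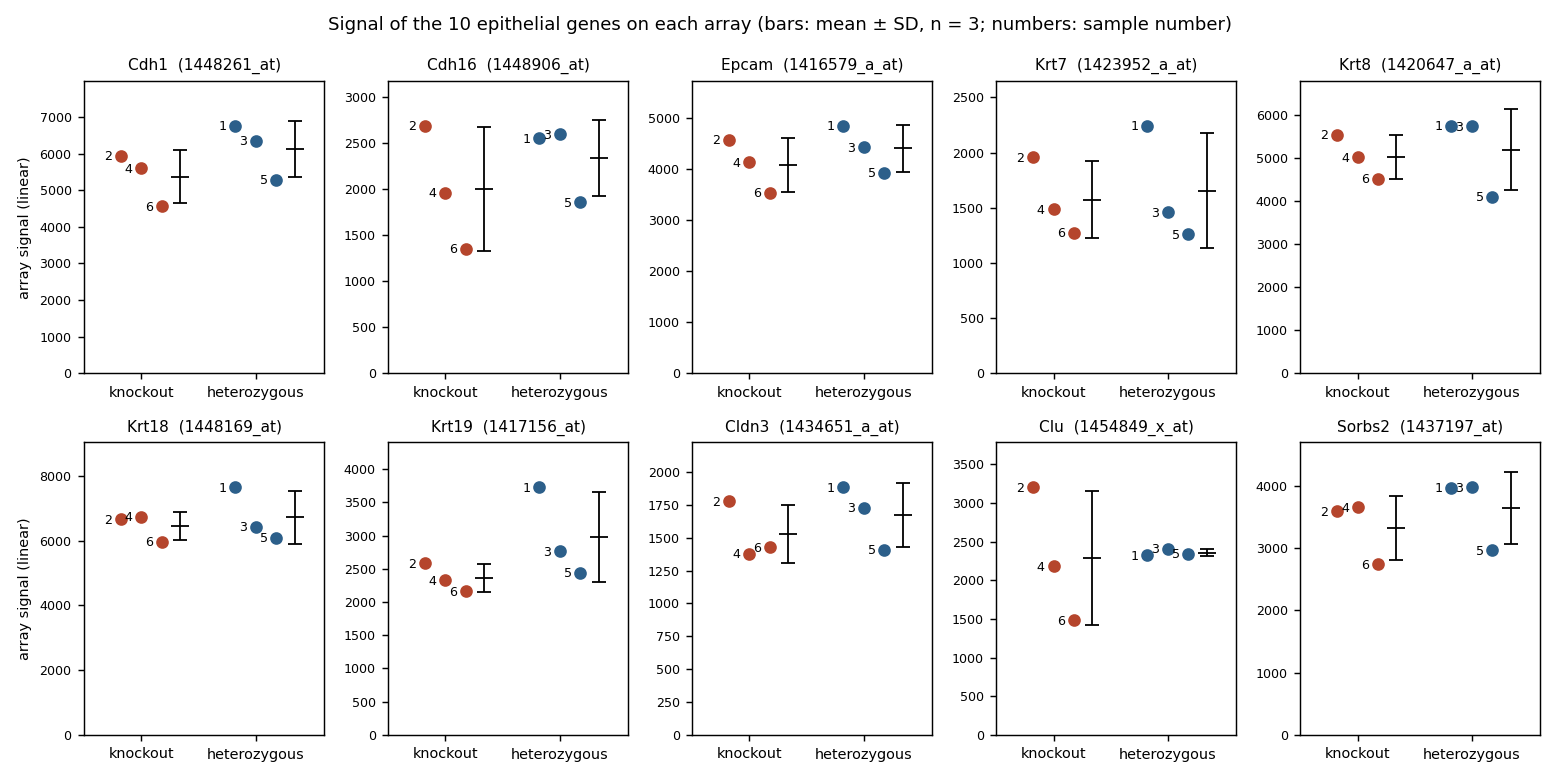
Linear array signal of each of the 10 genes by its brightest probe set, with 1 point per array labelled by sample number, knockout left and heterozygous right, and the mean ± SD of 3 arrays beside the points. The groups overlap in every panel, and knockout 6 and heterozygous 5 are the lowest of their genotype for 9 of the 10 genes each.

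Clu had a wide spread among knockouts, as Cdh16 had, beside nearly equal heterozygous values. It read 3205, 2180.3 and 1485 on knockouts 2, 4 and 6, against 2320.3, 2406 and 2346 on heterozygous 1, 3 and 5 (1454849_x_at). The highest knockout array was 2.16-fold above the lowest, against 1.04-fold for heterozygous arrays, and the knockout values enclosed the heterozygous ones at each of the 4 probe sets of Clu. Over these 4 probe sets the log2 differences lay between -0.22 and -0.11, none of which passed (limma, adjusted p = 1.0). Whether the spread differs between genotypes was not tested. Sorbs2 read 3591, 3659 and 2737 on knockouts 2, 4 and 6, against 3972, 3980.3 and 2969 on heterozygous 1, 3 and 5 (1437197_at). Knockouts 2 and 4 lay within the heterozygous range and knockout 6 below it, with a log2 difference of -0.13 (interval -0.48 to 0.23, limma, adjusted p = 1.0). Of 3 further probe sets of Sorbs2, 1441624_at read a mean of 90.3 on knockout and 81.3 on heterozygous arrays, a log2 difference of -0.01, and the other 2 were too dim to be tested.

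Of the 22 probe sets 20 were bright enough to be tested, at least 1 for each gene, and 0 of these 20 passed between knockout and heterozygous thyroid (limma, adjusted p under 0.05), where 0% of all 27022 tested probe sets did. With no adjustment, 0 of the 20 had a limma p under 0.05, where 0.511% of all had. By brightest probe set, 0 of the 10 genes had all knockout arrays below all heterozygous arrays, where 2.04% of all tested probe sets had. The differences were small and nearly all to the same side: 19 of the 20 probe sets and the brightest probe set of all 10 genes had the lower mean log2 value in knockouts, where 50.7% of all tested probe sets had. The 10 genes share their arrays, so this count is not that of 10 separate observations. The median of the 10 log2 differences was -0.12, beside -0.0021 over all probe sets tested, and the 95% intervals of all 20 probe sets included 0.

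**Figure D2:**
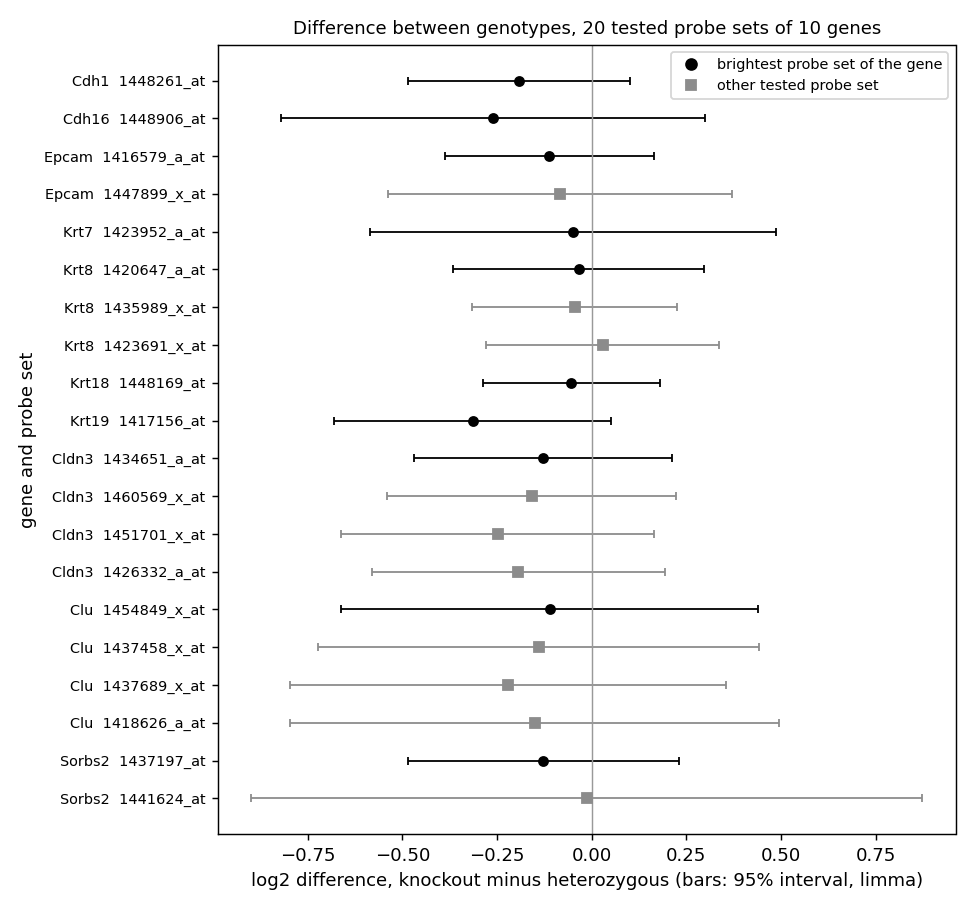
Log2 difference, knockout minus heterozygous, of the 20 tested probe sets of the 10 genes on the horizontal axis, with 95% intervals from limma (circles for the brightest probe set of a gene, squares for the others). Points lie between -0.31 and 0.03, and each interval includes 0.

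This common side rested on single arrays. Without knockout 6 only 5 of the 10 genes had the lower knockout mean, with a median of -0.0030, while 55.4% of all tested probe sets did. Without heterozygous 1 it was 7 of 10 with a median of -0.049, and without heterozygous 3 it was 9 of 10 with -0.10. With both heterozygous 1 and knockout 6 left out, 2 of 10 had the lower knockout mean and the median was 0.07. Of all tested probe sets, 56.2% then had the lower knockout mean. These arrays were the highest heterozygous and the lowest knockout array by the mean level of the 10 genes. Leaving both out raises the mean difference in any case, so this fit shows only how far it moves. Without knockout 2, without knockout 4 or without heterozygous 5 it was 10 of 10, with medians of -0.23, -0.12 and -0.23.

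**Figure D3:**
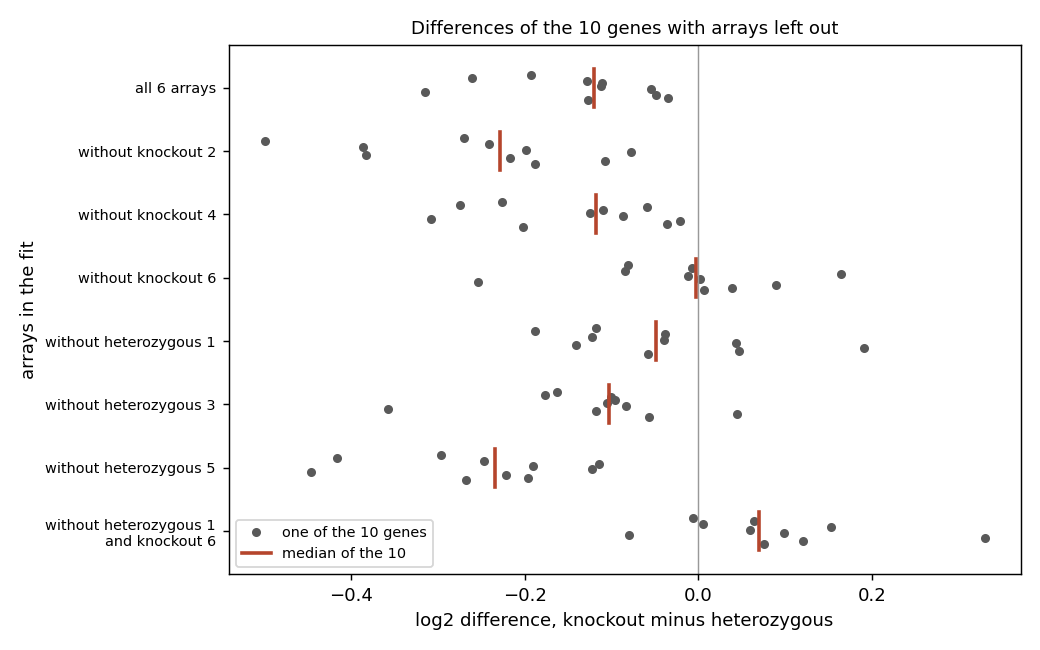
Log2 difference, knockout minus heterozygous, of each of the 10 genes (grey points) and their median (red bar) with all 6 arrays and with arrays left out, 1 row per set of arrays. The median is -0.12 with all arrays, -0.0030 without knockout 6 and 0.07 without heterozygous 1 and knockout 6. The arrays left out together are the highest heterozygous and the lowest knockout array by the mean level of the 10 genes.

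Between arrays of 1 genotype most of the 10 genes differed in the same direction, with Clu apart among heterozygotes, where its values were nearly equal and heterozygous 1 was its lowest. As deviations from the mean of each gene over the 6 arrays, averaged over the 10 genes, they stood at 0.17, -0.06 and -0.32 (log2) on knockouts 2, 4 and 6, against 0.26, 0.10 and -0.16 on heterozygous 1, 3 and 5. Of the 10 genes, 9 were above their own mean on knockout 2 and 10 on heterozygous 1, whereas 0 were above it on knockout 6 and 1 on heterozygous 5. The group means of these deviations were -0.07 ± 0.24 in knockouts and 0.07 ± 0.21 in heterozygotes (SD, n = 3 each). The step between genotypes was thus smaller than the spread within either. That spread held a fall with sample number in both genotypes. In sample order, knockout 2 stood below heterozygous 1, knockout 4 below heterozygous 3 and knockout 6 below heterozygous 5. Whether neighbouring numbers belong together is not stated, and no pairing was tested. Knockout 2 had the highest signal of all arrays for Cdh16 and Clu, heterozygous 1 for 7 genes and heterozygous 3 for Sorbs2. Knockout 6 had the lowest for 7 genes, knockout 4 for Cldn3 and heterozygous 5 for Krt7 and Krt8. The SD of a gene over the 6 arrays lay between 0.13 and 0.38 (log2), with a median of 0.21, beside a median of 0.20 over all tested probe sets.

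How closely a pair of genes kept its ratio from array to array was measured by the SD of their within-array log2 ratio over the 6 arrays, for the 45 pairs. Cdh1 and Epcam held the tightest ratio, with an SD of 0.06. The partners Krt8 and Krt18 had 0.14, Krt18 and Krt19 0.18, Cdh1 and Cdh16 0.21, and Krt7 and Krt8 0.22. The loosest was that of Krt19 and Clu, with 0.36. Among the 12754 other named genes tested, those whose log2 values over the 6 arrays were most like the mean profile of the 10, by Pearson's r over these 6 arrays, were Pdia6 (r = 0.999), Cnn3 (0.998), Fxyd4 (0.997), Fam117b (0.997) and Nucb2 (0.997). Pdia6 is a disulfide isomerase of the endoplasmic reticulum, Cnn3 an actin-binding calponin, Fxyd4 a regulator of the sodium pump, and Nucb2 a calcium-binding protein. They are the best of many on 6 points that share library and scaling, and the likeness is a description only. Pdia6 read 2308, 1926 and 1590.0 on knockouts 2, 4 and 6, against 2436, 2176 and 1784 on heterozygous 1, 3 and 5.

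Other components of cell junctions and polarity had the same side as the 10 genes, with 0 genes passing in any list (limma, adjusted p under 0.05). Of the partners of cadherins at adherens junctions, 8 of 10 tested genes had the lower knockout mean, with a median log2 difference of -0.07. Pkp4, an armadillo protein of junctions, had the smallest p there. It read 4381, 4553 and 4502 on knockouts 2, 4 and 6, against 4952, 4837 and 5262 on heterozygous 1, 3 and 5. It was the 1 gene of these 10 with all knockout arrays below all heterozygous arrays, where 2.04% of all tested probe sets had that. Its log2 difference was -0.16 (limma, unadjusted p = 0.0543, adjusted p = 1.0). Nectin4 (-0.32), a nectin adhesion molecule, and Ctnnd1 (-0.11), the p120 catenin that holds cadherins at the membrane, followed by p.

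Of tight junction genes 16 of 17 had the lower knockout mean, with a median of -0.13. Cldn23 read 146.6, 75.6 and 73.9 on knockouts 2, 4 and 6, against 145.3, 161.3 and 150.4 on heterozygous 1, 3 and 5, a log2 difference of -0.61 (limma, unadjusted p = 0.0485, adjusted p = 1.0). Knockout 2 lay just above heterozygous 1, and the other knockouts lay below all heterozygous arrays. Occludin (Ocln) gave -0.34 and Cldn10, a claudin that forms ion pores, -0.36. Desmosomes and hemidesmosomes had 12 of 13 lower, with a median of -0.14, led by periplakin (Ppl, -0.30), envoplakin (Evpl, -0.39) and desmoplakin (Dsp, -0.24), which tie keratin filaments to junctions. Genes of epithelial polarity had 11 of 11 lower (median -0.15), with Crb3 (-0.30), Pals1 (-0.19) and Llgl2 (-0.15), parts of the Crumbs and Scribble complexes, at the smallest p. Epithelial regulators had 10 of 12 lower (median -0.15). The surface protease St14 gave -0.27 and the transcription factor Elf3 -0.23, while the splicing regulator Esrp2 gave 0.15.

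Without knockout 6 these counts were 6 of 10 for the cadherin partners, 10 of 17 for tight junctions, 7 of 13 for desmosomes, 6 of 11 for polarity and 10 of 12 for regulators, with medians between -0.04 and -0.0020. Without heterozygous 1 and knockout 6 they were 5 of 10, 7 of 17, 3 of 13, 5 of 11 and 5 of 12. Of all tested probe sets, 55.4% had the lower knockout mean without knockout 6 and 56.2% without both arrays. Keratins outside the 10 genes were mostly dim. Of 12, 6 could be tested, 3 higher and 3 lower in knockouts (median 0.02), with Krt80 (-0.43), Krt10 (0.17) and Krt4 (-0.54) at the smallest p. Krt10 was higher on each knockout than on any heterozygous array. It read 843.9, 821.7 and 1042 on knockouts 2, 4 and 6, against 784.2, 794.1 and 813.3 on heterozygous 1, 3 and 5. The share of all probe sets with that order was not counted. Of the squamous keratins, Krt13 and Krt14 were under the limit for testing, whereas Krt4, Krt5 and Krt15 were tested.

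Genes of mesenchyme and of the epithelial to mesenchymal transition stood on the other side, 7 of 9 with the higher knockout mean and a median of 0.09. Fibronectin (Fn1) read 3603, 4442 and 4782 on knockouts 2, 4 and 6, against 3345, 3375 and 4152 on heterozygous 1, 3 and 5, with overlapping groups and a log2 difference of 0.23 (limma, unadjusted p = 0.113, adjusted p = 1.0). Vimentin (Vim) gave 0.10 and the mesenchymal cadherin Cdh11 0.12. Over the arrays this list ran against the 10 genes, at -0.16, 0.15 and 0.13 on knockouts 2, 4 and 6, against -0.20, -0.04 and 0.12 on heterozygous 1, 3 and 5. Without heterozygous 1 it was 3 of 9 higher, and without knockout 4 it was 4 of 9. Thyrocyte genes, Tg, Pax8, Slc5a5 and 6 others, followed the 10 genes in part, at 0.17, -0.08 and -0.11 on knockouts 2, 4 and 6, against 0.19, -0.01 and -0.16 on heterozygous 1, 3 and 5. Of these, 6 of 9 had the lower knockout mean, with a median of -0.04. The count was 4 of 9 without knockout 6, 3 of 9 without heterozygous 1 and 2 of 9 without both. By p they were led by Pax8 (-0.14), the transcription factor of follicular cells, Slc5a5 (0.22), the iodide symporter, and Tg (-0.04).

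Of the marker lists for other tissues, those of skeletal muscle and neuroendocrine cells differed between arrays in part as the 10 genes did. Those of fibroblasts and smooth muscle did not. By mean deviation, those of fat and macrophages had the opposite sign to the 10 genes on each array. All 7 skeletal muscle markers, among them Acta1, Myh4 and Mylpf, were above their 6-array mean on knockout 2 and on heterozygous 1. The count was 0 of 7 on knockout 6 and 1 of 7 on knockout 4. It was 4 of 7 on heterozygous 3 and 5 of 7 on heterozygous 5. On heterozygous 5 only 1 of the 10 genes was above its mean. The mean deviations of the muscle markers were 0.95, -0.37 and -1.66 on knockouts 2, 4 and 6, against 1.01, 0.13 and -0.06 on heterozygous 1, 3 and 5. The summed signal of the muscle markers lay between 6109 and 32118 on knockout arrays and between 18938 and 33942 on heterozygous arrays, and 7 of 7 had the lower knockout mean (median log2 difference -0.66, none passing in limma). Of the neuroendocrine markers 6 of 6 had the lower knockout mean, with summed signals between 4886 and 15346 on knockout and between 11427 and 13093 on heterozygous arrays. Without knockout 6, the muscle count was 4 of 7 and the neuroendocrine count 5 of 6. Without heterozygous 1 and knockout 6 these counts were 1 of 7 and 0 of 6. The part of these tissues in the differences of the 10 genes was not tested.

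Of the other epithelia that a dissection may bring along, the markers of parathyroid summed to between 2862 and 11212 on knockout arrays and between 272.5 and 10593 on heterozygous arrays, lowest on heterozygous 1, where the 10 genes were highest. Airway markers summed to between 2507 and 4551 on knockout and between 2627 and 5259 on heterozygous arrays. Muc5b and the ciliated cell regulator Foxj1 were under the limit for testing. Of the 5 tested, 3 had the higher knockout mean. Tekt1 had the smallest p, at 206.2, 188.8 and 281.5 on knockouts 2, 4 and 6, against 115.9, 188.0 and 140.8 on heterozygous 1, 3 and 5. Its log2 difference was 0.56 (limma, unadjusted p = 0.0415), which did not pass after adjustment. Squamous markers summed to between 1376 and 2376 on knockout and between 1745 and 2572 on heterozygous arrays. Most of that was Trp63, at 1847, 1852 and 1162 on knockouts 2, 4 and 6, against 1971, 2131 and 1341 on heterozygous 1, 3 and 5. The mean deviations of the squamous list were 0.13, 0.32 and -0.70 on knockouts 2, 4 and 6, against 0.05, 0.31 and -0.11 on heterozygous 1, 3 and 5. Of the 4 thymic epithelial markers 0 reached the limit for testing, and their sum was highest on knockout 4, at 903.3, as was that of the thymocyte markers, at 2846 on knockout 4 and at most 127.0 on any heterozygous array. Fibroblast, fat and macrophage markers were below their mean on knockout 2, at -0.14, -0.27 and -0.17, and above it on knockout 4, at 0.15, 0.18 and 0.17. On knockout 6, the array with the lowest epithelial level, these stood at 0.05, 0.18 and 0.09. On heterozygous 1, 3 and 5 fibroblast markers stood at -0.03, -0.02 and -0.0033. Fat markers stood there at -0.06, -0.14 and 0.12, and macrophage markers at -0.10, -0.02 and 0.03. Of the smooth muscle markers 4 of 4 tested had the lower knockout mean, with a median log2 difference of -0.15 and none passing in limma, and their sums lay between 2776 and 3456 on knockout and between 3255 and 3927 on heterozygous arrays.

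**Figure D4:**
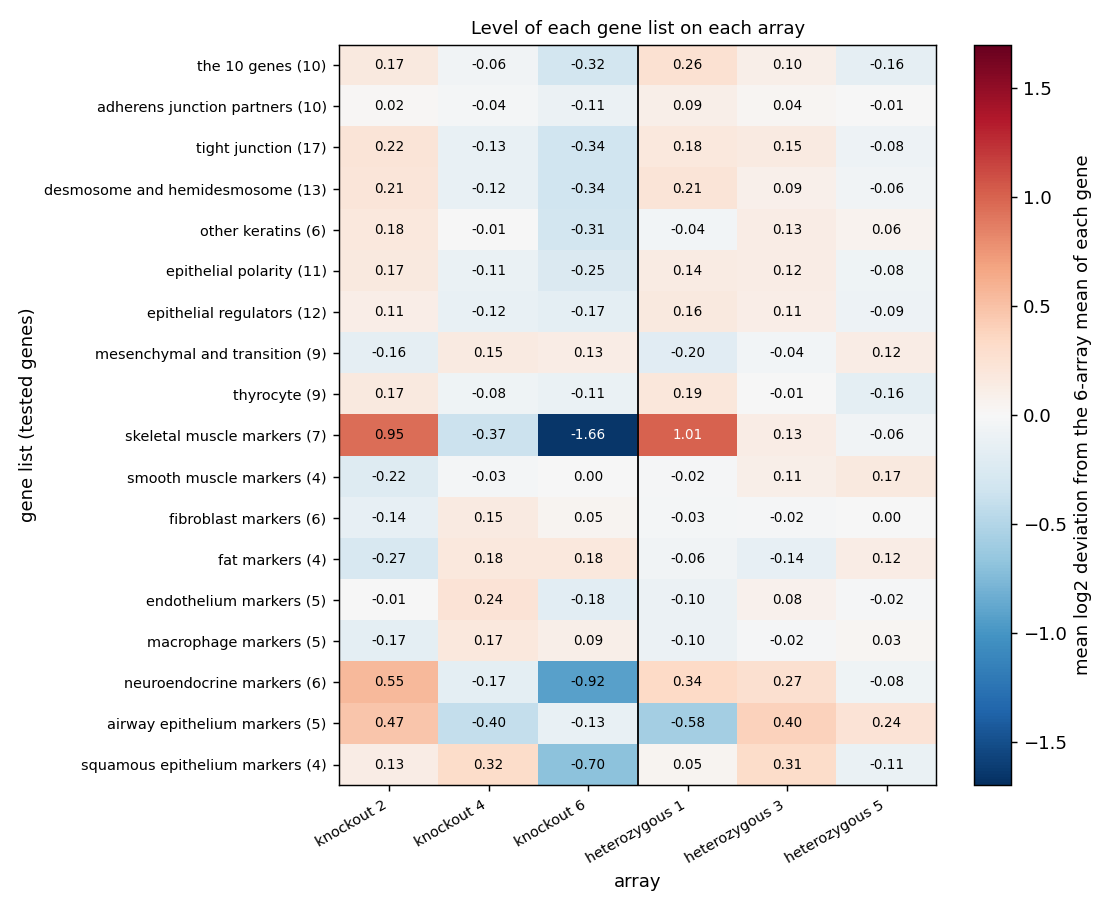
Mean log2 deviation from the 6-array mean of each gene (colour and printed value) for each gene list with at least 4 tested genes (rows) on each array (columns, knockouts left of the line and heterozygotes right). The 10 genes stand at -0.32 on knockout 6 and at 0.26 on heterozygous 1, their lowest and highest arrays, and the skeletal muscle markers at -1.66 and 1.01 on the same arrays.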

How the data were processed

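Thyroid RNA of 3 Slc26a4 knockout and 3 Slc26a4 heterozygous samples was measured on Affymetrix mouse arrays after NuGEN Ovation amplification, per the labels' protocols. The authors made the deposited linear intensities, with 1 value for each probe set on an array, in GCOS (per the submitters' processing notes, without a version). The mean trimmed by 2% at each end was 500.002 on all 6 arrays, so the arrays had been scaled to a common mean, and a shift of most transcripts would be lost by that scaling. Gene names came from the platform annotation where it lists 1 symbol (34958 of 45101).

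Intensities entered the fit as log2(signal + 16.7), with the 25th percentile of all values as the pseudocount. The 64 control probe sets were left out, and the 27022 of 45037 probe sets with a mean log2 value above the 40th percentile were tested with limma 3.58.1 in R 4.3.3 (lmFit and eBayes with an intensity trend), with Benjamini-Hochberg adjustment over all of them and a threshold of 0.05. The fit was tested on simulated data. A gene is represented by its brightest tested probe set. The precision is limited by the number of arrays, 3 a group, and the array annotation gives no genome build, so no gene coordinates are printed beside signals. The groups share no sample number.

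The text names Slc26a4, all 10 genes, the 3 genes of the smallest unadjusted p in each epithelial, mesenchymal and thyrocyte list, and the 5 genes most like the mean profile. Grhl2, Zeb1, Zeb2, Snai1, Snai2 and the single marker genes lie outside that rule, and their values were seen before they were chosen. The genes and lists were chosen with earlier results of these data known. The fit was repeated after quantile or cyclic loess normalization, with the pseudocount multiplied by 0.25 or by 4, with all probe sets or those above the 60th percentile, with eBayes robust or lacking the trend, with array weights, and with the mean over a gene's probe sets, and without each array or without both heterozygous 1 and knockout 6. Counts over lists with arrays left out were added after seeing the data.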

Additional observations from a re-analysis of the deposited data

How the results depend on the processing

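No probe set passed in limma under any of the 17 alternatives run, among the 10 genes or on the whole array. At an unadjusted p under 0.05 in limma, the fit reported had 138 of 27022 probe sets. The alternatives had between 86 and 966, out of unlike totals. The 86 were of 16672 rows, with the probe sets of a gene averaged, and the 966 of 27022 probe sets. Of the 20 probe sets of the 10 genes, 1 was under 0.05 with array weights, 5 without knockout 2 and 3 without heterozygous 5. In the fit reported it was 0. Of all 27022 probe sets, 915 were under 0.05 with array weights, 941 without knockout 2 and 367 without heterozygous 5. The median log2 difference of the 10 genes lay between -0.14 and -0.12 under the 10 alternatives that kept all arrays, with 10 of 10 genes lower in knockouts. With 1 array left out it ranged from -0.23 to -0.0030. With heterozygous 1 and knockout 6 both left out it was 0.07. These are the highest heterozygous and the lowest knockout array of the 10 genes, so their removal raises the mean difference in any case. The difference was then above 0 for Krt7 (0.33), Clu (0.15), Krt8 (0.12), Krt18 (0.099), Sorbs2 (0.076), Cdh16 (0.0643), Epcam (0.0597) and Cldn3 (0.0053). Fits with 1 array left out ranged from -0.22 to 0.19 for Krt7, from -0.39 to 0.16 for Clu, from -0.20 to 0.047 for Krt8, from -0.12 to 0.0431 for Krt18 and from -0.27 to 0.0069 for Sorbs2. The other genes stayed below 0 in these fits, Krt19 from -0.45 to -0.14, Cdh1 from -0.30 to -0.08, Cdh16 from -0.50 to -0.0075, Cldn3 from -0.25 to -0.04 and Epcam from -0.20 to -0.01. Why the result turns on these arrays was not tested. No paired analysis was run. The groups share no sample number, and the labels do not say whether neighbouring numbers share a litter, day or processing step. With 3 arrays a group, the 95% intervals of the 10 genes reached down to -0.82 (Cdh16) and up to 0.49 (Krt7) on the log2 scale, and differences within a gene's interval could not be told from 0.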
